A study of Mus musculus with 9 samples.

Results

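Cd320, the cellular receptor for vitamin B12 on its carrier, and 9 other genes of B12 handling (10 in all) were read in bulk poly(A)+ RNA libraries from mouse embryonic stem cells, of which 4 were wild type and 5 lacked Gzf1 by their labels. The genes were found by symbol among 30232 gene rows. Each had a row of its own, and all 10 were among the 12645 genes that passed the low-count filter. Cd320 was picked because it was 1 of 4 genes called in the comparison of knockout with wild type (0.0316% of genes tested). Its values in that comparison are therefore given as a description without a test. The other 9 members were chosen for their place in the pathway around it.

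Cells take up vitamin B12 (cobalamin) bound to the carrier protein transcobalamin, encoded by Tcn2, through the surface receptor encoded by Cd320. The vitamin leaves the lysosome through the proteins of Lmbrd1 and Abcd4, is processed in the cytosol by those of Mmachc and Mmadhc, and then serves a pair of enzymes. Methionine synthase (Mtr, kept active by Mtrr) makes methionine from homocysteine in the cytosol, and methylmalonyl-CoA mutase (Mut, supplied with adenosylcobalamin by Mmab) works in mitochondria.

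Replicates 1 and 2 of either genotype were RGM cells, sequenced in the batch that the labels call run2. Run1 held wild-type replicate 3 and knockout replicates 3, 4 and 5, all V6.5 cells, and wild-type replicate 4, a line labelled Cas9-GFP. Run and cell line therefore cannot be told apart. All cells had been kept on irradiated mouse embryonic fibroblasts with serum and LIF, and were depleted of these feeders before harvest. Neither the edit in Gzf1, a zinc finger gene, nor whether the knockout libraries of a line came from 1 clone or several is given in the sources used here. The labels do not say that libraries were separate cultures, so the p-values describe the spread among these 9 libraries, and that spread may be technical.

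Library totals were 2568489 to 3704162 counts in run2 and 4872127 to 7072697 in run1. A count of 3, taken as the floor, was 0.424 to 1.17 CPM (counts scaled to library size and composition), and the lowest count of any member in any library was 36. RGM cells of the wild type held Gzf1 itself at 28.6 and 30.0 CPM, those of the knockout at 5.45 and 14.2 CPM. The run1 values were 8.11 and 18.7 CPM for the wild type against 1.66, 9.40 and 5.24 CPM for the knockout, so that the genotypes overlapped in run1 and not in run2. Its log2 fold change over all libraries was -1.45 (SE 0.42, edgeR, unadjusted p = 0.0048, adjusted p = 0.9998), and a 3' tag outside the edited part would not report the edit. The 10 stem cell markers checked, Pou5f1, Sox2 and Nanog among them, had counts in every library. Some differed between the runs. Zfp42 was at 318 to 396 CPM in run2 and 32.2 to 38.2 CPM in run1. Tdgf1 (512 to 598 against 1313 to 2248 CPM) and Klf4 (168 to 200 against 348 to 577 CPM) were lower in run2. In either genotype edgeR called 1 of the 10 higher and 2 lower in run2. The shares over all genes were 24.4% in wild-type and 25% in knockout libraries. Of 15 feeder fibroblast markers 14 had a row. Their summed level over the 13 that passed the filter was 1089 to 2006 CPM in run2 and 612 to 1032 CPM in run1, and 614 to 1475 CPM in wild-type and 612 to 2006 CPM in knockout libraries. Col1a1 and Col1a2 were present in every library, and Lum was at 0 in wild-type replicate 3 alone. In bulk RNA fewer cells of a type and less RNA per cell cannot be told apart.

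The promoter windows of the members are shown first because Gzf1 and Zfp57, both named in the study's title, are DNA-binding proteins. The RefSeq table (GRCm38.p6, the build also called mm10) held windows of 300 bases, from 250 before to 50 after a transcript start, for 6 of the 10 members: Cd320, Lmbrd1, Mmachc, Mtr, Mtrr and Mmab. They were searched on both strands for TGCGCG, the leading letters of the site described for human GZF1. The rest of that site was not searched, so a match covers only part of it. TGCCGC, the hexamer bound by Zfp57 when methylated, was searched in the same way. In each Mtrr window 1 TGCCGC match, on the opposite strand, overlapped the TGCGCG match. TGCGCG was found in the windows of Cd320 and Mtrr, a member lower in the knockout and one that was not called, and these are printed with the TGCGCG matches in capitals.
Cd320, chr17:33842841-33843140, plus strand: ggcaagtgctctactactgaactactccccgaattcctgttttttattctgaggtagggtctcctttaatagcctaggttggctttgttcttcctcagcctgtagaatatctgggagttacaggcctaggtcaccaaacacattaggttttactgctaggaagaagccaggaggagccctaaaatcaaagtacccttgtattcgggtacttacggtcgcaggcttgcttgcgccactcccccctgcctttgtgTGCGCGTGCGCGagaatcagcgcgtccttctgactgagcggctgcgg
Mtrr, chr13:68582120-68582419, minus strand: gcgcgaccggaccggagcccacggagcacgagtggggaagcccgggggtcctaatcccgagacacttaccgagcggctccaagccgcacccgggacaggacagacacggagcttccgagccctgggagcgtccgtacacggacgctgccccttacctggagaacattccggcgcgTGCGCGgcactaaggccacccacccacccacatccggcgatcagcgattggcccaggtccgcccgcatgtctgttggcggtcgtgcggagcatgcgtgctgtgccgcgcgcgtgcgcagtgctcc
In Cd320 the 2 matches lay next to each other, beginning 3 and 9 bases after the annotated start, and in Mtrr the match began 75 bases before it. A second window of Cd320, which starts further into the gene, held none. TGCGCG was held by 12.6% of the 32851 windows of this length, and among the 12454 with at least the 13 CG pairs of the Cd320 window the share was 30.9%. TGCCGC had 2 matches in each Mtrr window and none in the other members' windows, while it was held by 11.6% of all windows and by 24.1% of those with at least 13 CG pairs. A match is a description of the letters and not of binding.

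**Figure D1:**
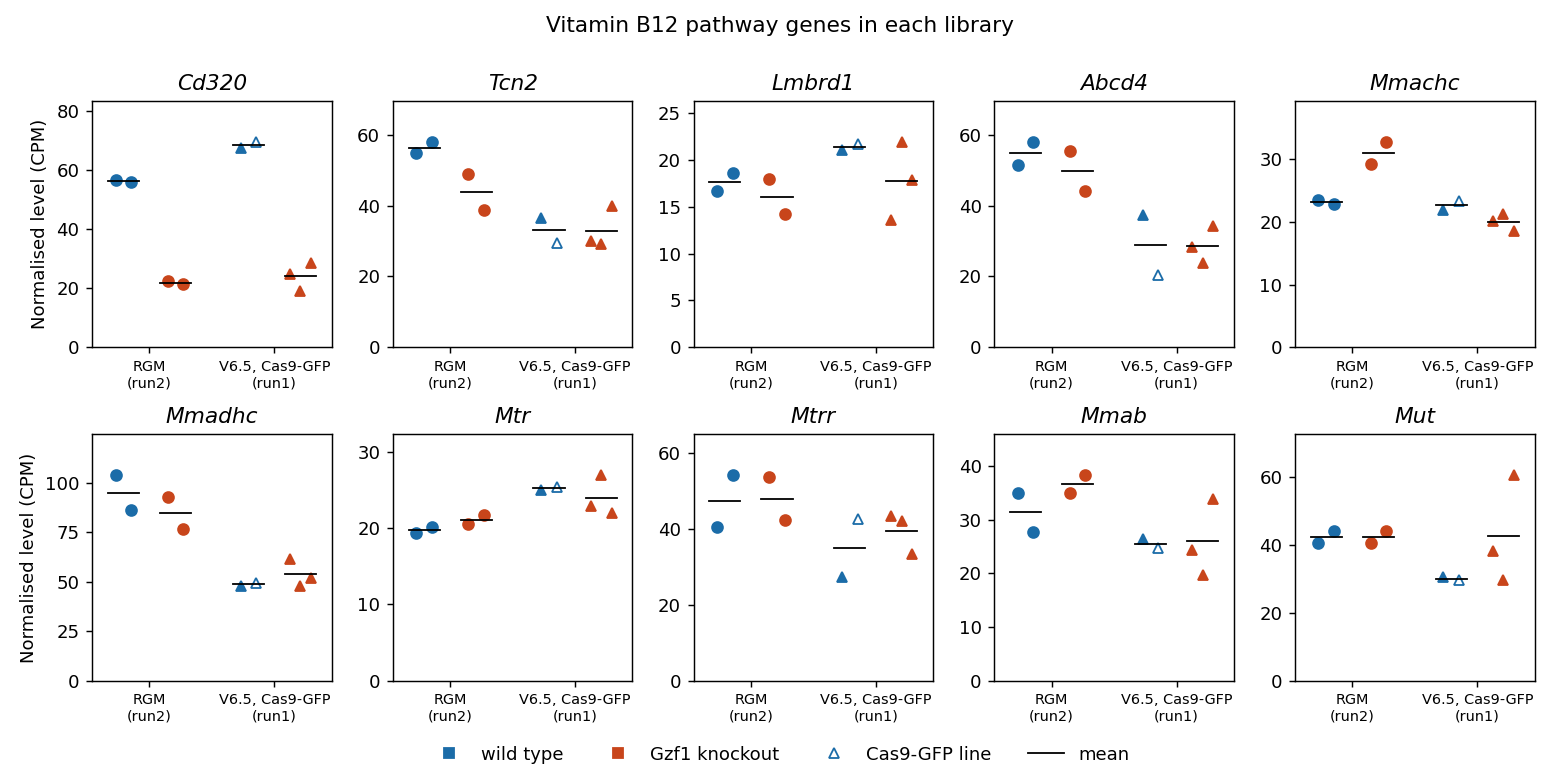
Normalised level in CPM (vertical axis, from 0) of each of the 10 genes in every library, with RGM cells of run2 as circles and cells of run1 as triangles, wild type in blue and knockout in orange, the Cas9-GFP line as an open triangle and black bars for the mean of each genotype in each run. In the Cd320 panel all knockout libraries lie below all wild-type libraries in either run, while in the other panels the genotypes overlap across the 9 libraries.

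Cd320 (chromosome 17, 33843091 to 33849774, mm10), the receptor for transcobalamin-bound cobalamin, was lower in every knockout library than in any wild-type library, a separation that 0.443% of genes showed in either direction. Its level was 56.9 and 56.0 CPM in the wild-type RGM libraries, 67.6 in wild-type V6.5 cells and 69.7 in the Cas9-GFP line. In the knockout it was 22.4 and 21.3 CPM in RGM cells and 24.9, 19.2 and 28.5 CPM in V6.5 cells. The highest knockout library, at 28.5 CPM, thus lay below the lowest wild-type library, at 56.0 CPM. The wild-type libraries were of 3 lines and the knockout libraries of RGM and V6.5 cells, with no knockout of the Cas9-GFP line. The means were 62.6 ± 7.11 CPM (SD, n = 4) and 23.3 ± 3.58 CPM (SD, n = 5), a log2 fold change of -1.44 (SE 0.15) or 2.72-fold lower. The fitted fold change was -1.37 (SE 0.25) within RGM cells and -1.50 (SE 0.20) within run1. These are the values that chose the gene.

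The raw counts behind these levels were 142 to 492 in wild-type and 54 to 180 in knockout libraries, well above the floor. To set Cd320 against the rest of its pathway without any scaling between libraries, its count was divided by the summed count of the other 9 members in the same library. Per 100 counts of those members Cd320 gave 14.7 and 14.4 counts in wild-type RGM, 24.7 in wild-type V6.5 and 26.2 in Cas9-GFP cells. The knockout libraries gave 5.69 and 6.04 in RGM and 8.82, 7.34 and 9.15 in V6.5 cells. The ratio was thus lower in every knockout library than in every wild-type library, again as a description. The summed level of the other 9 members was 353 to 394 CPM in run2 and 262 to 312 CPM in run1, and the ratio was lower in run2 than in run1 in either genotype.

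None of the other 9 members was called between knockout and wild type over all libraries. edgeR's quasi-likelihood test called 0 of the 9, with 0 at an unadjusted p under 0.05, beside 0.0316% and 2.32% of all genes. DESeq2 and limma voom each called 0 of the 9. Within the runs edgeR likewise called 0 of the 9 and had 0 at an unadjusted p under 0.05, where it called 0 and 2 of all genes (0% in run2 and 0.0158% in run1) and had 0.822% and 3.84% of genes under the unadjusted value. DESeq2 called 0 of the 9 in either run. Over all libraries, 5 of their log2 fold changes were positive and 4 negative, with a median of 0.00 and a range of -0.21 to 0.29, beside a median of 0.01 over all genes tested. The largest fall and rise that the 95% intervals of these 9 genes allow over all libraries were -0.62 for Lmbrd1 and 0.73 for Mut.

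**Figure D2:**
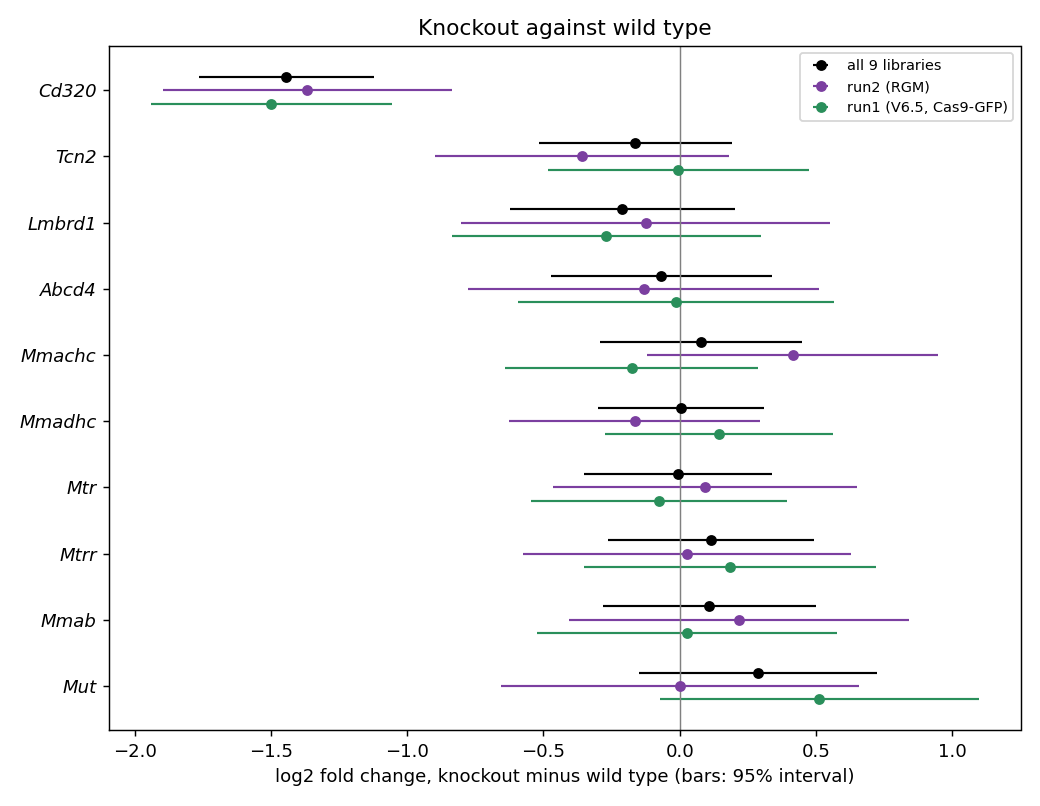
Log2 fold change of knockout against wild type (horizontal axis) for each of the 10 genes, from the fit to all 9 libraries (black), within run2 (purple) and within run1 (green), with 95% intervals as bars. Cd320, the gene picked from this comparison, lies at -1.44, and the other 9 genes lie between -0.21 and 0.29 in the fit to all libraries with intervals that include 0.

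Tcn2 (chromosome 11, 3917192 to 3932159) encodes the carrier that Cd320 binds. The wild-type RGM libraries held it at 54.7 and 58.0 CPM and the knockout ones at 49.0 and 38.7 CPM. In run1 it was at 36.5 CPM in V6.5 and 29.4 CPM in Cas9-GFP wild-type cells and at 29.9, 29.0 and 39.8 CPM in the knockout. In RGM cells the knockout lay below the wild type without overlap, and 34.6% of genes were separated there in either direction. In run1 the genotypes overlapped. The log2 fold change was -0.16 (SE 0.16, 95% interval -0.52 to 0.19, edgeR, adjusted p = 0.9998) over all libraries, -0.36 (SE 0.25) in RGM cells and -0.00 (SE 0.22) in run1.

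The genes of lysosomal export, through which freed cobalamin reaches the cytosol, were Lmbrd1 (chromosome 1, 24678630 to 24766301) and Abcd4 (chromosome 12, 84601464 to 84617413). Lmbrd1, a membrane protein of the lysosome, ranged from 16.7 to 21.7 CPM in wild-type and from 13.5 to 21.9 CPM in knockout libraries. Its log2 fold change was -0.21 (SE 0.19, 95% interval -0.62 to 0.20, edgeR, adjusted p = 0.9998). Abcd4, an ABC transporter, reached 51.5 and 58.0 CPM in RGM cells of the wild type and 55.4 and 44.2 CPM in those of the knockout. In run1 it was at 37.4 CPM in V6.5 and 20.4 CPM in Cas9-GFP wild-type cells and at 28.2, 23.8 and 34.1 CPM in the knockout. The knockout libraries of run1 thus lay between the 2 wild-type lines, and the log2 fold change over all libraries was -0.07 (SE 0.19, 95% interval -0.47 to 0.34, edgeR, adjusted p = 0.9998). Its sign in run1 turned on the wild-type library used, with 0.50 without wild-type replicate 3 and -0.38 without wild-type replicate 4, neither of them called.

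Mmachc (chromosome 4, 116702279 to 116708406) strips the upper ligand from cobalamin. In RGM cells the wild type held it at 23.5 and 22.9 CPM, the knockout at 29.1 and 32.8 CPM. In run1 it was at 21.8 CPM in V6.5 and 23.4 CPM in Cas9-GFP wild-type cells and at 20.2, 21.3 and 18.5 CPM in the knockout. The knockout libraries lay above the wild type in RGM cells and below it in run1, without overlap in either run. Separation in one direction or the other was met by 34.6% of all genes in run2 and 13.5% in run1. The log2 fold change was 0.41 (SE 0.25, unadjusted p = 0.12) in RGM cells and -0.18 (SE 0.22, unadjusted p = 0.43) in run1. The difference between these, 0.59 (SE 0.33, edgeR, unadjusted p = 0.094, adjusted p = 1.0), did not pass the threshold, and edgeR called 0 of all 12645 genes in that test.

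Of 3 factors known to act on Mmachc transcription, Hcfc1, Thap11 and Zfp143, edgeR called 0 in the knockout, with 0 at an unadjusted p under 0.05. The shares over all genes were 0.0316% and 2.32%. Hcfc1, a chromatin cofactor mutated in an inherited cobalamin disorder, had a log2 fold change of 0.15 (SE 0.17) and Thap11 one of -0.01 (SE 0.13).

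Mmadhc (chromosome 2, 50279881 to 50296801) directs cobalamin to one or the other enzyme. RGM cells held it at 103.8 and 86.0 CPM in the wild type and at 92.9 and 76.6 CPM in the knockout. In run1 it was at 47.8 CPM in V6.5 and 49.4 CPM in Cas9-GFP wild-type cells and at 61.7, 47.6 and 51.6 CPM in the knockout. The genotypes overlapped in each run, with a log2 fold change of 0.00 (SE 0.14, 95% interval -0.30 to 0.31, edgeR, adjusted p = 0.9998), the narrowest interval of the 10 members.

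In the cytosolic branch Mtr (chromosome 13, 12182712 to 12258113), methionine synthase, varied least across the study. RGM cells held it at 19.4 and 20.1 CPM in the wild type and at 20.5 and 21.7 CPM in the knockout. In run1 it was at 25.0 CPM in V6.5 and 25.4 CPM in Cas9-GFP wild-type cells and at 23.0, 26.9 and 22.0 CPM in the knockout. In RGM cells the knockout thus lay above the wild type, by 0.09 on the log2 scale (SE 0.26), where 34.6% of all genes separated in either direction, and in run1 the genotypes overlapped. Its highest value was 1.39 times its lowest, the smallest such ratio of the 10 members, where Cd320 had 3.63. The log2 fold change in the knockout was -0.01 (SE 0.16, 95% interval -0.35 to 0.34, edgeR, adjusted p = 0.9998). Mtrr (chromosome 13, 68560780 to 68582149), the reductase that restores the cobalamin of methionine synthase, ranged from 27.3 to 54.1 CPM in wild-type and from 33.3 to 53.5 CPM in knockout libraries, with a fold change of 0.12 on the log2 scale (SE 0.18, edgeR, adjusted p = 0.9998).

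In the mitochondrial branch Mmab (chromosome 5, 114431034 to 114444060), the enzyme that makes adenosylcobalamin, ranged from 24.7 to 35.0 CPM in wild-type and from 19.6 to 38.3 CPM in knockout libraries. Its log2 fold change was 0.11 (SE 0.18, 95% interval -0.28 to 0.50, edgeR, adjusted p = 0.9998). Mut (chromosome 17, 40934685 to 40961988), the mutase itself, was at 40.7 and 44.2 CPM in both genotypes of RGM cells. In run1 it was at 30.5 CPM in V6.5 and 29.6 CPM in Cas9-GFP wild-type cells and at 38.2, 29.7 and 60.6 CPM in the knockout, where replicate 5 stood highest of all 9 libraries. The log2 fold change over all libraries, 0.29 (SE 0.20, 95% interval -0.15 to 0.73, edgeR, adjusted p = 0.9998), became 0.09 without knockout replicate 5. Cenpq overlaps Mut on the opposite strand, away from the last 500 bases of Mut, and no other member overlaps an annotated gene.

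The knockout effect was then compared between the runs. Of the 9 members other than Cd320 edgeR called 0, with 0 at an unadjusted p under 0.05 beside 1.44% of all genes, and DESeq2 called 0. For Cd320, as a description, the run2 effect minus the run1 effect was 0.13 (SE 0.32, 95% interval -0.56 to 0.83).

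Cell line and run, a contrast not used in picking the genes, separated several members. Abcd4 and Mmadhc were higher in RGM cells of run2 than in the cells of run1 in both genotypes, and Tcn2 was higher in the wild type. Of the 10 members 3 were called in the wild-type libraries, all higher in run2, beside 24.4% of all genes in either direction and 12.1% higher. In the knockout libraries 2 were called, also higher, beside 25% of genes in either direction and 12.6% higher. The wild-type and knockout contrasts share no library, but they come from the same fit with a shared estimate of spread and scaling. In both of them run goes with cell line. The share of members called was near the background.

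For Mmadhc the difference was 0.97 on the log2 scale (SE 0.21, edgeR, adjusted p = 0.0073) in wild-type and 0.66 (SE 0.19, adjusted p = 0.025) in knockout libraries. Every RGM library, at 76.6 CPM or more, lay above every library of run1, at 61.7 CPM or less, a separation that 38.6% of genes showed in either direction. In the wild type the call did not hold when replicate 1 was left out (adjusted p = 0.093). The knockout call was lost without knockout replicate 1 (0.24) or 2 (0.078) and without the low-count filter (0.052).

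For Abcd4 the difference was 0.91 (SE 0.30, edgeR, adjusted p = 0.040) in wild-type and 0.79 (SE 0.27, adjusted p = 0.047) in knockout libraries, again with every RGM library above every library of run1. Both calls lay near the threshold. The first was lost in 5 of 9 fits that left out 1 library (those without replicate 1, 2 or 4 of the wild type, or 1 or 2 of the knockout, adjusted p up to 0.25). The second was lost in 6 of 9 (those without replicate 1 or 2 of the wild type, or 1, 2, 3 or 4 of the knockout, adjusted p up to 0.31). Without wild-type replicate 4, the Cas9-GFP line, the wild-type difference was 0.54, and without replicate 3 it was 1.42.

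For Tcn2 the difference was 0.77 (SE 0.25, edgeR, adjusted p = 0.038) in wild-type and 0.42 (SE 0.23, adjusted p = 0.20) in knockout libraries. The wild-type call was lost in 6 of 9 fits that left out 1 library, those without any 1 of the 4 wild-type libraries or knockout replicate 1 or 2 (adjusted p up to 0.19). Knockout replicate 2 of the RGM cells, at 38.7 CPM, lay below knockout replicate 5 of run1, at 39.8 CPM. With run as a term over all 9 libraries, which called 45.3% of genes, all 3 genes passed. The values were 0.80 (SE 0.14, adjusted p = 0.00048) for Mmadhc, 0.85 (SE 0.19, adjusted p = 0.0023) for Abcd4 and 0.58 (SE 0.17, adjusted p = 0.011) for Tcn2, and the other 7 members were not called.

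Fibroblast markers moved with the same contrast. Of the 13 tested, 7 were called higher in run2 in wild-type libraries and 8 in knockout libraries, and 0 lower, beside 12.1% and 12.6% of all genes called higher. Their median difference was 0.87 and 0.96. Within RGM cells the summed fibroblast level was highest in knockout replicate 2 (2006 CPM), the library with the lowest Tcn2, Abcd4 and Mmadhc of the 4. Within run1 it was highest in knockout replicate 3 (1032 CPM). That library had the highest Mmadhc of run1 (61.7 CPM), but not the highest Tcn2 (29.9 CPM) or Abcd4 (28.2 CPM). The part of these cells in the difference between runs was not tested.

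The remaining members were not called between the runs in either genotype. Mmachc had a difference of 0.04 (SE 0.24) in wild-type and 0.63 (SE 0.22, edgeR, adjusted p = 0.052) in knockout libraries, the latter at the edge of the threshold and called without knockout replicate 4 (0.043). Mmab had 0.30 (SE 0.28) and 0.49 (SE 0.26, adjusted p = 0.18), called in the knockout libraries without replicate 5 (0.041). Cd320 had -0.28 (SE 0.23) and -0.15 (SE 0.23), Mtr -0.35 (SE 0.25) and -0.18 (SE 0.23), and Lmbrd1 -0.28 (SE 0.30) and -0.13 (SE 0.28). These 3 were the members with a negative value in both genotypes. Mtr was lower in every RGM library than in every library of run1, a separation that 38.6% of all genes showed in either direction, and the test called it in neither genotype. Mtrr had 0.44 (SE 0.27) and 0.28 (SE 0.25), and Mut 0.50 (SE 0.30) and -0.02 (SE 0.27).

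**Figure D3:**
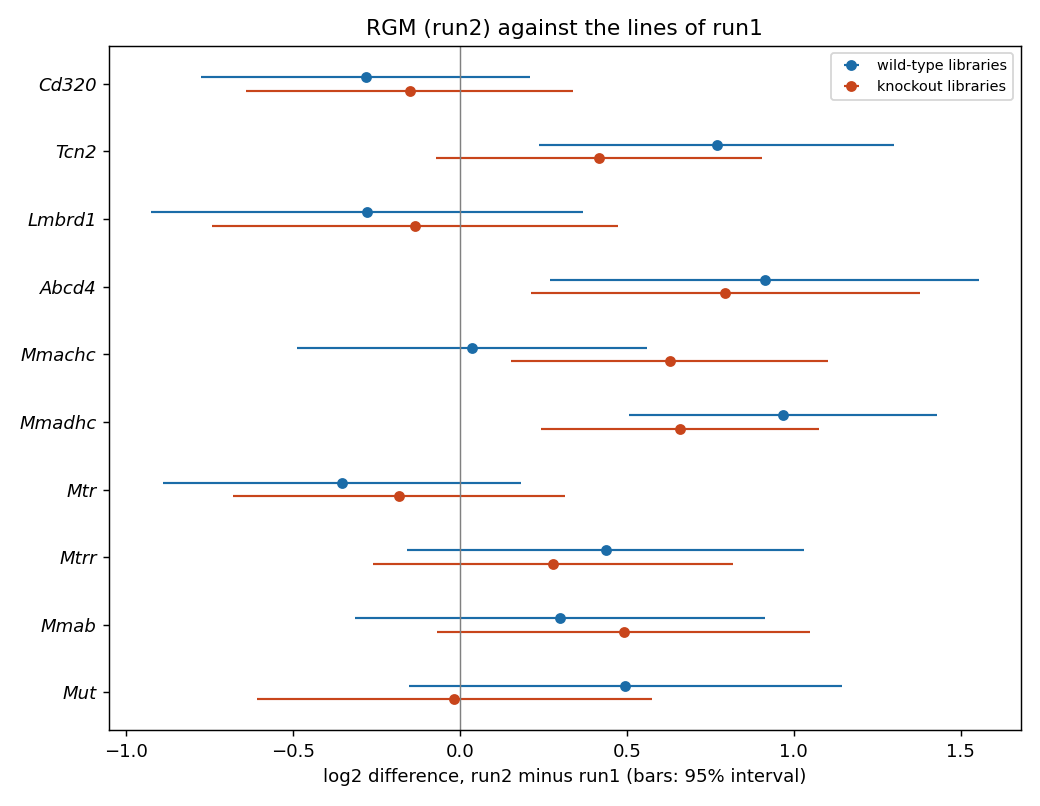
Log2 difference between RGM cells of run2 and the cells of run1 (horizontal axis) for each of the 10 genes, in wild-type (blue) and knockout (orange) libraries, with 95% intervals as bars. Abcd4 and Mmadhc lie right of 0 in both genotypes, at 0.91 and 0.79 and at 0.97 and 0.66, while Cd320, Lmbrd1 and Mtr lie left of 0 with intervals that include it.

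Beyond the members, 36 further symbols of cobalamin uptake, the propionate route, the methionine and folate cycles and the control of Mmachc were listed, of which Gif and Cblif name the same gene. Rows were found for 35 and 32 passed the filter. Between knockout and wild type edgeR called 0 of the 32, beside 0.0316% of all genes, and DESeq2 and limma voom called 0. The median log2 fold change was 0.03 beside 0.01 over all genes. At an unadjusted p under 0.05 there were 3, against 2.32% of all genes tested, and those given here are named after their values were seen. Ahcy, which hydrolyses S-adenosylhomocysteine, had -0.29 (SE 0.12), and Ggh, which trims the glutamate tail of folates, -0.48 (SE 0.19), each with adjusted p = 0.9998.

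Cubn, the gut receptor of B12, had at most 3 counts in any library, a level at the floor, and Gif, the intrinsic factor, had 0 in all 9 libraries, which allows up to the floor given above. Amn, the partner of Cubn, was at 1.80 to 9.44 CPM, and differed in the knockout by -0.44 on the log2 scale (SE 0.35, edgeR, adjusted p = 0.9998). It was higher in run2 by 1.53 (SE 0.50, adjusted p = 0.040) in wild-type libraries and had 0.68 (SE 0.48, adjusted p = 0.32) in knockout libraries. Abcc1, an exporter of cobalamin from the cell, has a row shared with the transcript AK051594. Abcc1 was at 19.6 to 65.3 CPM with a log2 fold change of 0.10 (SE 0.17) in the knockout. It was higher in run2 by 1.19 (SE 0.27, edgeR, adjusted p = 0.0079) in wild-type and 1.16 (SE 0.24, adjusted p = 0.0046) in knockout libraries.

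In the propionate route, which delivers the substrate of the mutase and takes up its product, log2 fold changes in the knockout ran from -0.16 to 0.36. Of its 7 genes edgeR called 0, with 0 at an unadjusted p under 0.05, beside 0.0316% and 2.32% of all genes. Between the runs Suclg2, a subunit of succinyl-CoA ligase, was higher in run2 by 1.82 (SE 0.20, adjusted p = 0.00021) in wild-type and 1.68 (SE 0.18, adjusted p = 9.5e-05) in knockout libraries. Pcca and Pccb encode the 2 subunits of propionyl-CoA carboxylase and lay on opposite sides. In wild-type libraries Pcca was higher in run2 by 0.94 (SE 0.29, adjusted p = 0.033) and Pccb lower, at -1.42 (SE 0.28, adjusted p = 0.0038). In the knockout libraries Pccb was lower again, at -0.84 (SE 0.25, adjusted p = 0.029), while Pcca had 0.70 (SE 0.26, adjusted p = 0.068).

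Of 19 tested genes of the methionine and folate cycles edgeR called 0 in the knockout, beside 0.0316% of all genes. Between the runs 3 were higher and 4 lower in run2 among wild-type libraries, and 5 higher and 4 lower among knockout libraries, beside 24.4% and 25% of all genes called in either direction. Cbs, which draws homocysteine into cysteine synthesis, was higher in run2 by 1.47 (SE 0.28, adjusted p = 0.0033) and 1.15 (SE 0.25, adjusted p = 0.0057) in the 2 genotypes. Mthfd1l, of the mitochondrial folate route, was higher by 0.98 (SE 0.18, adjusted p = 0.0032) and 0.88 (SE 0.16, adjusted p = 0.0026). Tyms, thymidylate synthase, was lower, at -1.03 (SE 0.23, adjusted p = 0.0077) and -0.83 (SE 0.21, adjusted p = 0.014).

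The genes around Cd320 on chromosome 17 were read in the knockout to see whether the difference extended along the chromosome. Of the annotated protein-coding genes with a start within 100 kb of that of Cd320, 13 had a row and all passed the filter. edgeR called 0 of the 13, with 0 at an unadjusted p under 0.05, beside 0.0316% and 2.32% of all genes. DESeq2 and limma voom called 0 of the 13. Their log2 fold changes ran from -0.23 (Zbtb22) to 0.30 (Rgl2), 4 negative and 9 positive. The nearest upstream genes, the divergent pair Rps28 and Ndufa7, had 0.21 (SE 0.16) and 0.01 (SE 0.17), and Kifc1, the nearest downstream, in a row shared with Gm27740, had 0.07 (SE 0.20).

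**Figure D4:**
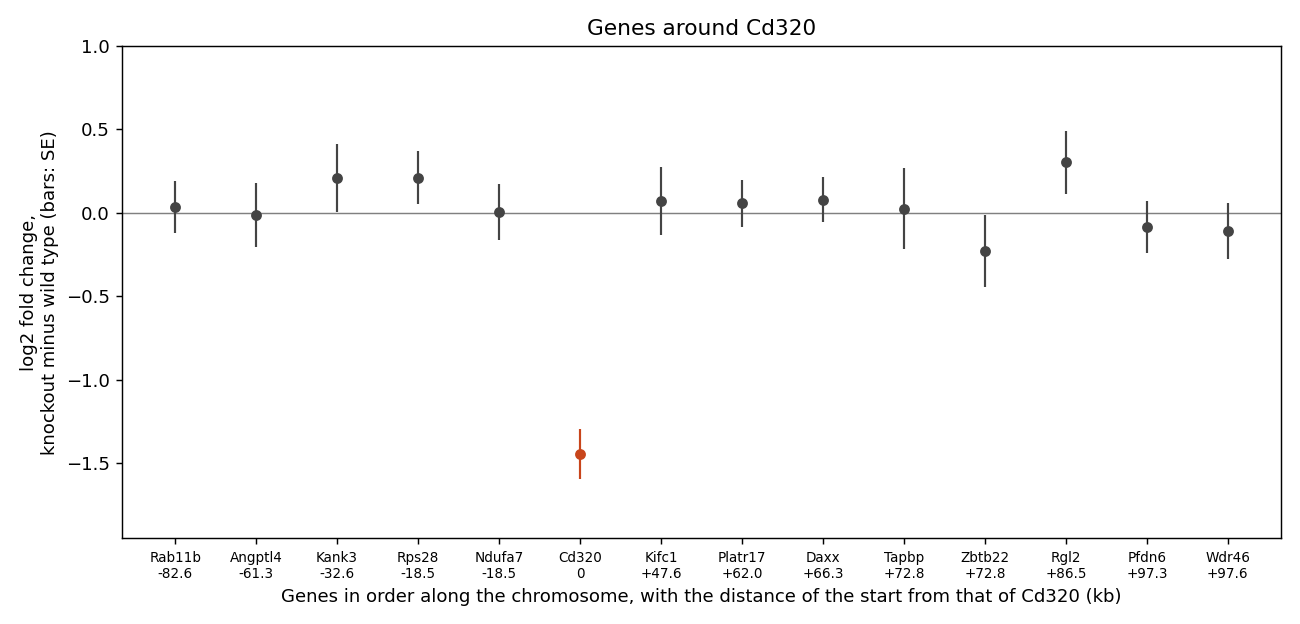
Log2 fold change of knockout against wild type over all libraries (vertical axis, bars are SE) for Cd320 and the 13 tested protein-coding genes around it, in order along the chromosome with the distance of their starts in kb. Cd320 lies at -1.44 and its neighbours between -0.23 and 0.30.

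The 5 genes with the pattern most like that of Cd320 were found by Pearson correlation over the 9 libraries after the mean of each run was removed, as a description. They were Hectd3 (r = 0.995), Dnajb12 (0.961), Slc10a7 (0.957), Kitl (0.951) and Dnajc14 (0.919). The genotype difference, from which Cd320 was picked, stayed in these values, so genes with a like difference rank high. Hectd3, which encodes an E3 ubiquitin ligase, was at 23.4 to 26.8 CPM in wild-type and 2.51 to 5.25 CPM in knockout libraries. Slc10a7, of the bile acid transporter family, was at 16.2 to 20.9 and 7.37 to 8.57 CPM, and Dnajc14, a co-chaperone, at 28.5 to 34.5 and 21.5 to 28.5 CPM. Among the members themselves the correlation with Cd320 was highest for Tcn2 (0.482) and Lmbrd1 (0.430) and lowest for Mtrr (-0.305), over libraries that share line, run and genotype. Over all tested genes Tcn2 ranked only 1007 and Lmbrd1 1368 by this correlation. Mmachc lies on chromosome 4 at 287 kb from Hectd3, and its log2 fold change over all libraries was 0.08 (SE 0.17, 95% interval -0.29 to 0.45, edgeR, adjusted p = 0.9998).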

How the data were processed

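The authors deposited raw counts per gene symbol (whole numbers, one column per library). Libraries were MARS-seq2.0, a method counting 3' ends of poly(A)+ RNA, per the labels' protocols. The submitters' processing notes name STAR, DESeq2 and the build mm10. The counter, its annotation, strand and use of molecular identifiers were not found in the labels, so counts may not be independent molecules, and floors cover counting error only. Of 30324 rows, 92 spike-in rows (1 with a count, of 1) were left out.

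Genes were kept with filterByExpr (minimum count 10, by genotype), scaled with TMM and tested with edgeR 4.0.16 (R 4.3.3) by the robust quasi-likelihood F test with Benjamini-Hochberg adjustment over 12645 genes and a threshold of 0.05. Knockout was compared with wild type with run as a term. Effects within runs, their difference and the contrasts between runs came from 1 fit with 4 groups (genotype by run). Each SE was derived from the fold change and its F value, and 95% intervals use it and include the spread between libraries. DESeq2 1.42.0 and limma 3.58.1 (voom with quality weights) were alternatives. The fit was tested on simulated counts. Positions are GENCODE M21 (GRCm38, mm10), and promoter sequences RefSeq GRCm38.p6.

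Members and gene lists were chosen with earlier results of these data known. Named genes were the members, Gzf1, the 5 most like Cd320 (log2 CPM, prior count 2), neighbours within 100 kb, and of each list up to 4 called genes or else the most expressed. Ahcy, Ggh, Cubn, Gif, Zfp143 and the cell type markers named are outside this rule and were chosen after their values were seen. The values of 1 listed gene are not reported here.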

Additional observations from a re-analysis of the deposited data

How the results depend on the processing

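Cd320 kept its direction in all 16 alternatives to the comparison over all libraries (log2 fold change -1.52 to -1.36). The other 9 members were called in none of them. Cd320 was picked from that comparison in these same libraries, so its values here are a description. The count of genes called there, 4, was 35 without the low-count filter, 7 with DESeq2, 10 with limma voom and 2 without the run term, and 2 to 4 when 1 library was left out (2 without replicate 1, 3 or 4 of the wild type, or 1 or 2 of the knockout). Within run2 it was 0, and became 7 without the filter, 2 with DESeq2, 9 in a fit to run2 alone and 0 to 1 with 1 library left out (1 without knockout replicate 4). Within run1 it was 2, and became 46 without the filter, 4 with DESeq2, 1 in a fit to run1 alone and 0 to 8 with 1 library left out (8 without knockout replicate 4, 1 without wild-type replicate 2, 2 without knockout replicate 5 and 0 without any other). The difference between runs gave 1 gene without the filter rather than 0. The contrasts between runs called 3081 genes in wild-type and 3160 in knockout libraries, 5732 with run as a term over all libraries, and 883 to 4087 and 892 to 3531 with 1 library left out. The cause was not tested.

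Where 1 library was left of a group it was assumed to vary like the others. With the replicate number as a block in place of run, 6 genes were called and Cd320 had -1.52 (SE 0.15), and no member's call changed. Same-numbered libraries deviated from their group means with a correlation of -0.07 for numbers 1 and 2, 0.30 for 3 and 0.34 for 4. In a group of 2 libraries the deviations are exact opposites, so numbers 1 and 2 share 1 value, which cannot decide on pairing. Wild-type libraries 3 and 4 each correlated best with their own number (highest other value 0.10 and -0.10). Their deviations are opposites too, and wild-type library 4 is of another line than knockout library 4. The main fit did not take the numbers as pairs. Depth was lowest in RGM cells, where Lmbrd1 had 36 to 62 counts. Replicates also differed less there. The chi-square per degree of freedom between 2 libraries of a group was 2.63 and 3.31 in run2. In run1 it was 14.9 between the wild-type lines and 23.6 to 26.0 among the knockout libraries, at greater depth. The fit with 4 groups shares its estimate of spread between the runs, so the SEs within RGM cells also carry the spread of run1.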

Other observations

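Of the 5 genes most like Cd320 in pattern, 3 (Dnajb12, Kitl and Dnajc14) lie on chromosome 10, which holds 4.72% of the tested rows with a position. The median log2 fold change of all 570 tested rows of that chromosome was 0.02, beside 0.01 over all rows with a position. Kitl, which encodes the ligand of the Kit receptor, was at 3.96 to 6.71 CPM in wild-type and 2.09 to 3.95 CPM in knockout libraries. This was noticed after the values were seen and was not tested.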
